A study of Mus musculus with 6 samples.

Results

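The genes that acidify the lysosome and break down its contents were examined in cultured mouse peritoneal cells with and without a working Mcemp1 gene. The set held every row named Atp6v (the subunits of the vacuolar proton pump, or V-ATPase), every cathepsin row except Ctsg, and 21 further genes named for this work, which gave 51 of the 17320 genes in the table. They were sorted by role into 9 genes of the V1 sector and 9 of the V0 sector of the pump, 12 cathepsins, 7 glycosidases, 7 other hydrolases, 3 hydrolase cofactors and granulins, 2 membrane proteins and 2 transcription factors. The V0 genes include the row of the processed pseudogene Atp6v0c-ps2. The rule itself uses no measured value.

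The 6 RNA sequencing libraries came from peritoneal cells grown for 9 days with stem cell factor (SCF) and interleukin-3 (IL-3), factors that expand mast cells. The Mcemp1+/+ (wild-type) libraries are replicates 1, 2 and 3, and libraries labelled Mcemp1-/- are replicates 4, 5 and 6. All mice were C57BL/6, and the Mcemp1-/- allele is a short CRISPR-Cas9 deletion in exon 1 that shifts the reading frame. The deletion is in every cell of the animal. The sample titles call the cells PCMC, the paper's term for peritoneal cell-derived mast cells. RNA markers of other cell types were also present, as given below, so the cultures may be mixtures of cells. The age of the mice, the number of mice behind a library and any sort of the cells before RNA extraction are not given in the labels of these libraries. Values are normalized counts on a CPM scale (counts scaled to a common library total).

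Lysosomes are acidified by the V-ATPase, in which the cytosolic V1 sector hydrolyses ATP and turns a rotor that drives protons through the membrane V0 sector. The low pH activates the proteases called cathepsins and the glycosidases, sulfatases and lipases that digest material from endocytosis and autophagy, and LAMP proteins coat the inner face of the membrane. Many of these genes are known targets of TFEB and TFE3, members of the MiT family of transcription factors, whose relative MITF is required for mast cells. In mast cells the secretory granules are themselves related to lysosomes and store several of these hydrolases.

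One library stood apart from its label. Across the genes tested, replicates 4 and 5 correlated with each other at 0.99 on the log2 scale, whereas the library labelled Mcemp1-/- replicate 6 correlated with them at 0.92 and with Mcemp1+/+ replicates 1, 2 and 3 at 0.98, 0.92 and 0.98 (genes are not independent replicates). Mcemp1 itself was at 9.80, 7.68 and 16.9 CPM in Mcemp1+/+ replicates 1, 2 and 3, at 0.201 and 0.0849 CPM in replicates 4 and 5, and at 4.23 CPM in replicate 6. A transcript with a short deletion can still be counted, so the label can be checked only loosely by it. Mcemp1+/+ replicate 2 differed from the rest in its small nuclear and nucleolar RNA genes (35265 CPM against 24.8 to 29.1 CPM), and Xist was at 1297 and 1481 CPM in replicates 3 and 6 and at 0.0537 to 0.341 CPM in the others. Results are therefore given over all 6 libraries and again without replicate 6. A log2 difference given in parentheses after a gene's values is from the fit without replicate 6. That fit compares 2 Mcemp1-/- libraries with 3 Mcemp1+/+ libraries, and its p-values measure only the spread between these libraries. Replicate 6 was left out because of its values in these same data. The p-values do not take that choice into account and can be too small.

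Over all 6 libraries, none of the lysosomal genes passed the test. By limma, with Benjamini-Hochberg adjustment over all genes and a threshold of 0.05, 0 of the 50 tested members were called lower or higher, where 0.0596% of the 13413 genes tested were called lower (8 genes) and 0.0149% higher (2 genes). At an unadjusted p under 0.05, 8 members were lower and 5 higher, 13 of 50 in all, against 25.5% of all genes. The 3 values of each group did not overlap for 7 members that were lower in Mcemp1-/- (Atp6v1g2, Atp6v0d2, Ctsb, Ctsl, Gla, Psap and Tfeb) and for 7 that were higher (Atp6v1c1, Atp6v1d, Atp6v1h, Atp6v0d1, Atp6v0e, Hexa and Tpp1). Each of these shares was 14.0%, near the 14.8% of all genes that lay lower without overlap and the 14.8% that lay higher. With libraries scaled to equal totals, 8 members were lower and 4 higher without overlap, against 17.7% and 11.8% of all genes. The median log2 difference of the members was 0.06, beside -0.01 over all genes tested.

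Without replicate 6, lysosomal genes were called in both directions, within most of the role groups, as genes were over the whole table. Of the 50 tested members, 17 were called lower (34.0%) and 13 higher (26.0%), beside 22.5% and 19.5% of all 13412 genes in the same fit, and leaving out any other library gave 0 calls among them. Of the 50 members, 19 lay lower and 23 higher with groups that did not overlap, beside 33.6% and 32.1% of all genes. The falls were deep for a few genes, down to a log2 difference of -5.77, whereas the rises reached 0.60 at most. The median difference was 0.06, beside -0.01 over all genes. Replicate 6 lay nearer to the Mcemp1+/+ mean than to the mean of replicates 4 and 5 for 45 of the 50 members (90.0%), and for 68.1% of all genes tested. In bulk RNA, fewer cells of a type and less RNA per cell cannot be told apart.

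**Figure D1:**
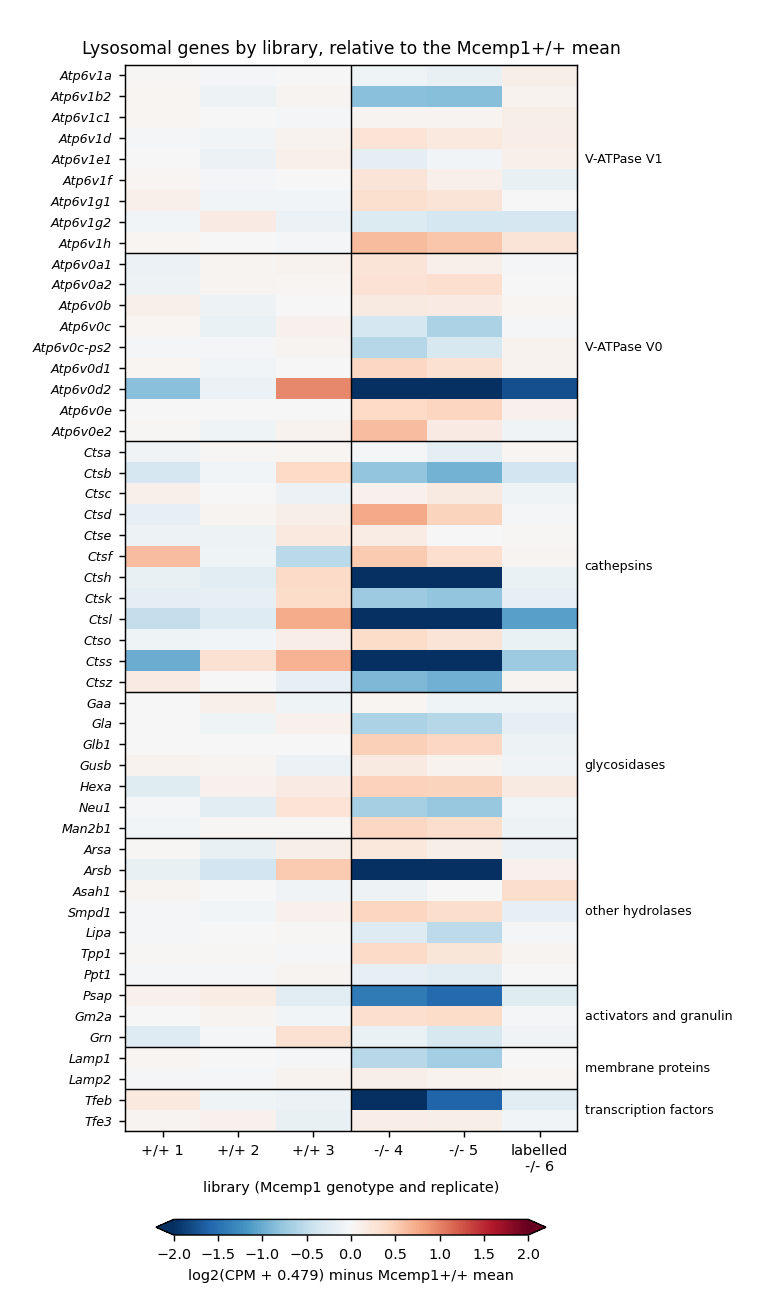
Level of each of the 51 genes (rows, by role) in each library (columns), as log2(CPM + 0.479) minus the Mcemp1+/+ mean, with colours cut at -2 and 2. Replicates 4 and 5 share deep blue rows at Ctss, Ctsh, Arsb and Tfeb that replicate 6 lacks. Ctsl is deep blue in replicates 4 and 5 and less so in replicate 6 (17.8 CPM), while Atp6v0d2 is low in all 3 libraries labelled Mcemp1-/-.

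The cathepsins held the deepest fall of the set. Without replicate 6, 5 of the 8 tested cysteine cathepsins were called lower and 0 higher, and of the 3 other cathepsins 1 was called higher. For the 11 tested cathepsins together this was 45.5% lower and 9.09% higher, beside 22.5% and 19.5% of all genes. Ctss (chr3:95526786-95556403 in mm10), a cysteine protease of antigen-presenting cells that trims the class II invariant chain, was at 40.9, 101 and 132 CPM in Mcemp1+/+ replicates 1, 2 and 3, at 1.54 and 0.637 CPM in replicates 4 and 5, and at 49.2 CPM in replicate 6. Replicates 4 and 5 thus lay far below every other library, and replicate 6 lay within the Mcemp1+/+ range. For Ctss the log2 difference over all 6 libraries was -4.09 (SE 1.45, adjusted p = 0.17), and without replicate 6 it was -5.77 (SE 0.52, adjusted p = 4.8e-04).

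Ctsl (chr13:64359337-64370890), a broadly expressed endopeptidase, was at 27.2, 32.0 and 63.9 CPM in Mcemp1+/+, at 1.71 and 2 CPM in replicates 4 and 5 and at 17.8 CPM in replicate 6. All 3 libraries labelled Mcemp1-/- lay below the Mcemp1+/+ libraries, replicate 6 by the least. The log2 difference was -3.06 (SE 0.87, adjusted p = 0.15) over all libraries and -4.05 (SE 0.35, adjusted p = 4.2e-04) without replicate 6. Ctsh (chr9:90054152-90076089), an aminopeptidase, was at 6.86, 6.44 and 10.1 CPM in Mcemp1+/+, 0.736 and 0.544 CPM in replicates 4 and 5 and 6.90 CPM in replicate 6, a difference of -2.87 (SE 0.24, adjusted p = 3.7e-04) without replicate 6. The more abundant Ctsb and Ctsz fell less: Ctsb, an endopeptidase and dipeptidase, was at 301, 368 and 504 CPM in Mcemp1+/+ and 221 and 199 CPM in replicates 4 and 5 (log2 difference -0.86, SE 0.20, adjusted p = 0.018), with replicate 6 at 294 CPM. Ctsz, a carboxypeptidase, was at 185, 163 and 147 CPM against 88.0 and 84.3 CPM (log2 difference -0.93, SE 0.10, adjusted p = 9.4e-04), with replicate 6 at 171 CPM. The summed level of the 9 cysteine cathepsins was 989.7, 1073 and 1227 CPM in Mcemp1+/+, 741 and 742 CPM in replicates 4 and 5 and 916 CPM in replicate 6.

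Cathepsin D moved the other way. Ctsd (chr7:142375911-142388038), the main aspartic protease of the lysosome, was at 918, 1072 and 1120.0 CPM in Mcemp1+/+, at 1742 and 1400.3 CPM in replicates 4 and 5 and at 1003 CPM in replicate 6. Replicates 4 and 5 exceeded every Mcemp1+/+ library and replicate 6 did not. The log2 difference was 0.38 (SE 0.21, adjusted p = 0.28) over all libraries and 0.60 (SE 0.12, adjusted p = 0.011) without replicate 6. Ctsc, the dipeptidyl peptidase that activates granule serine proteases such as the mast cell chymases, was at 416, 391 and 357 CPM in Mcemp1+/+ and 412 and 441 CPM in replicates 4 and 5, which overlapped (adjusted p = 0.21 without replicate 6). Ctsa, a serine carboxypeptidase that stabilises neuraminidase and beta-galactosidase, and Ctse, an aspartic protease of endosomes, were at 152 to 178 CPM and 231 to 284 CPM over the 6 libraries. Ctso and Ctsf, both cysteine proteases, were at 10.1 to 14.4 CPM and 0.456 to 1.60 CPM and did not pass. Ctsk, the collagenase of osteoclasts, ranged from 0.0425 to 0.684 CPM and was below the minimum mean of 1 CPM for testing.

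The make-up of the cathepsin transcripts differed between the libraries. Per kb of exon, Ctsd held 49.7, 51.2 and 49.5% of the summed level of the 12 cathepsins in Mcemp1+/+ replicates 1, 2 and 3, 71.5 and 67.9% in replicates 4 and 5 and 52.2% in replicate 6. With the length of the principal transcript in place of all exons, these shares were 43.7, 46.0 and 44.7%, 64.3 and 59.9% and 46.6%. The share of Ctss was 3.83, 8.33 and 10.1% in Mcemp1+/+, 0.109 and 0.0535% in replicates 4 and 5 and 4.44% in replicate 6. Replicates 4 and 5 thus had the highest shares of Ctsd and the lowest of Ctss by either length.

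**Figure D2:**
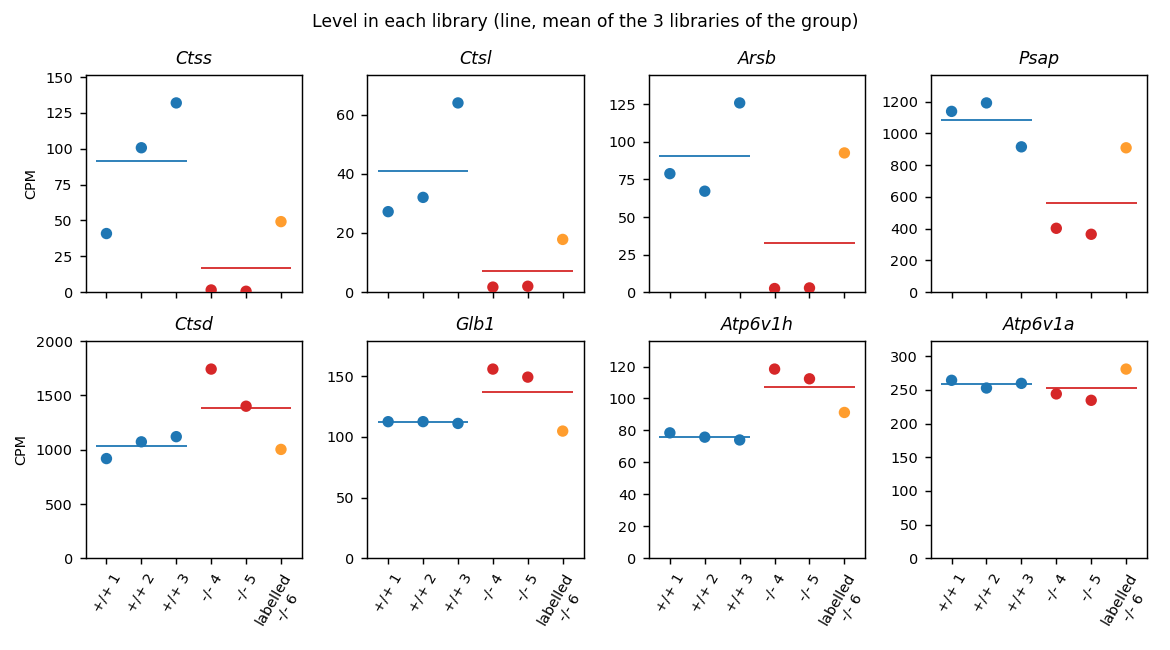
CPM of 8 genes in each library (points; blue Mcemp1+/+, red Mcemp1-/- replicates 4 and 5, orange the library labelled replicate 6), with lines at the mean of each group of 3. Ctss, Ctsl, Arsb and Psap are low in replicates 4 and 5, Ctsd, Glb1 and Atp6v1h are high there, and Atp6v1a is at 235 to 281 CPM throughout.

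The V1 sector of the proton pump showed 1 fall and 3 rises without replicate 6. These were 11.1% and 33.3% of its 9 genes, beside 22.5% and 19.5% of all genes. Atp6v1h (chr1:5070018-5162529), the regulatory subunit that couples the sectors, was at 78.5, 75.8 and 74.04 CPM in Mcemp1+/+, at 118 and 112 CPM in replicates 4 and 5 and at 91.2 CPM in replicate 6. It was higher in all 3 libraries labelled Mcemp1-/- than in any Mcemp1+/+ library, with a log2 difference of 0.48 (SE 0.11, adjusted p = 0.15) over all libraries and 0.60 (SE 0.06, adjusted p = 6.0e-04) without replicate 6. Atp6v1d, a rotor subunit, was at 75.1, 72.9 and 79.9 CPM in Mcemp1+/+, 91.5 and 86.7 CPM in replicates 4 and 5 and 83.6 CPM in replicate 6 (log2 difference 0.23, SE 0.06, adjusted p = 0.032 without replicate 6). Atp6v1g1, a stator subunit, was at 87.8, 78.7 and 78.3 CPM in Mcemp1+/+ and 102 and 98.0 CPM in replicates 4 and 5 (log2 difference 0.29, SE 0.07, adjusted p = 0.020). With equal library totals, Atp6v1d and Atp6v1g1 no longer passed, at adjusted p = 0.096 and 0.051.

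The fall was in Atp6v1b2 (chr8:69088646-69113711), the B subunit that forms the ring of the motor in alternation with the catalytic A subunit. It was at 181, 163 and 182 CPM in Mcemp1+/+, at 98.4 and 97.2 CPM in replicates 4 and 5 and at 183 CPM in replicate 6, a log2 difference of -0.84 (SE 0.07, adjusted p = 3.0e-04) without replicate 6. Its partner Atp6v1a was at 264, 253 and 259.7 CPM in Mcemp1+/+, 244 and 235 CPM in replicates 4 and 5 and 281 CPM in replicate 6 (adjusted p = 0.12 without replicate 6, and 0.046 with equal library totals). The CPM of Atp6v1b2 as a percentage of that of Atp6v1a was 68.5, 64.5 and 70.2% in Mcemp1+/+, 40.3 and 41.4% in replicates 4 and 5 and 65.2% in replicate 6. The stator subunits Atp6v1c1 and Atp6v1e1 and the rotor subunit Atp6v1f ranged over 82.1 to 91.2, 64.7 to 79.6 and 57.1 to 75.9 CPM and did not pass. Atp6v1g2, a stator subunit known best from neurons, was at 2.43 to 3.71 CPM.

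In the V0 sector, 3 members (the pseudogene row Atp6v0c-ps2 among them) were called lower and 3 higher without replicate 6. Each was 33.3% of its 9 genes, beside 22.5% lower and 19.5% higher over all genes. Those higher were Atp6v0e, Atp6v0d1 and Atp6v0a2. Atp6v0e, a small membrane subunit, was at 113, 112 and 113 CPM in Mcemp1+/+, 149 and 152 CPM in replicates 4 and 5 and 119 CPM in replicate 6 (log2 difference 0.42, SE 0.05, adjusted p = 0.0012 without replicate 6). Atp6v0d1, the broadly expressed d subunit of the central shaft, was at 147, 138 and 144 CPM in Mcemp1+/+, 190.3 and 177 CPM in replicates 4 and 5 and 151 CPM in replicate 6 (log2 difference 0.36, SE 0.06, adjusted p = 0.0043). Both were higher in all 3 libraries labelled Mcemp1-/- than in any Mcemp1+/+ library.

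Atp6v0d2 (chr4:19876841-19922605), the d subunit known from osteoclasts and macrophages, was the 1 V0 gene that was low in all 3 libraries labelled Mcemp1-/-. It was at 1.96, 3.54 and 7.98 CPM in Mcemp1+/+ and at 0.335 and 0.127 CPM in replicates 4 and 5, with replicate 6 at 0.806 CPM. The log2 difference was -2.34 (SE 0.53, adjusted p = 0.15) over all libraries and -2.64 (SE 0.53, adjusted p = 0.0097) without replicate 6, and the log scale with its added constant understates changes at such low levels. Atp6v0c, the proteolipid of the rotor ring, was at 215, 190.0 and 219.8 CPM in Mcemp1+/+, 162 and 134 CPM in replicates 4 and 5 and 203 CPM in replicate 6 (log2 difference -0.49, SE 0.10, adjusted p = 0.011 without replicate 6). The row of its processed pseudogene Atp6v0c-ps2 was at 32.2, 32.1 and 34.3 CPM in Mcemp1+/+, 22.02 and 26.4 CPM in replicates 4 and 5 and 34.4 CPM in replicate 6 (log2 difference -0.44, SE 0.10, adjusted p = 0.013), and reads of the gene and its near-identical copy may have been split between the rows. Atp6v0a1, Atp6v0b and Atp6v0e2 ranged over 81.5 to 106, 88.1 to 106 and 11.8 to 19.6 CPM and did not pass.

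The a subunit, which holds the proton path and directs the pump to a compartment, is made by several genes, and their balance differed. Atp6v0a2, known from the Golgi and endosomes, was at 112, 125 and 123 CPM in Mcemp1+/+, 146 and 152 CPM in replicates 4 and 5 and 120.3 CPM in replicate 6 (log2 difference 0.31, SE 0.07, adjusted p = 0.012 without replicate 6). Tcirg1, the a3 subunit of lysosomes and secretory lysosomes, is not named by the Atp6v rule but completes the family. It was at 121, 118 and 143 CPM in Mcemp1+/+, 51.9 and 52.1 CPM in replicates 4 and 5 and 136 CPM in replicate 6 (log2 difference -1.28, SE 0.09, adjusted p = 2.2e-04). Per kb of exon, Tcirg1 held 47.5, 44.1 and 48.9% of the level of Atp6v0a1, Atp6v0a2 and Tcirg1 together in Mcemp1+/+, 22.9 and 23.4% in replicates 4 and 5 and 48.6% in replicate 6. The share of Atp6v0a2 was 30.1, 31.9 and 28.8% in Mcemp1+/+, 44.2 and 46.6% in replicates 4 and 5 and 29.5% in replicate 6. With principal transcript lengths the Tcirg1 share was 49.1, 45.7 and 50.5%, 24.1 and 24.8% and 50.2%, so the order of the libraries did not depend on the length used.

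Of the 11 tested partners of the pump, 4 were called lower and 2 higher without replicate 6 (36.4% lower and 18.2% higher, beside 22.5% and 19.5% of all genes), and 0 in either direction over all libraries. Dmxl2, a subunit of the RAVE complex that assembles V1 onto V0, was at 54.3, 56.8 and 77.9 CPM in Mcemp1+/+, 5.18 and 3.76 CPM in replicates 4 and 5 and 73.3 CPM in replicate 6 (log2 difference -3.68, SE 0.20, adjusted p = 9.5e-05). Rogdi, which binds that complex, was at 28.3, 24.1 and 32.0 CPM in Mcemp1+/+, 8.502 and 7.05 CPM in replicates 4 and 5 and 24.8 CPM in replicate 6 (log2 difference -1.79, SE 0.15, adjusted p = 3.5e-04). Dmxl1 and Wdr7, also of that complex, did not pass, at log2 differences of 0.05 (SE 0.09, adjusted p = 0.65) and 0.32 (SE 0.12, adjusted p = 0.080). Rnasek, a small membrane subunit, was at 46.1 to 50.8 CPM in Mcemp1+/+, 59.1 and 59.7 CPM in replicates 4 and 5 and 55.7 CPM in replicate 6 (log2 difference 0.31, SE 0.07, adjusted p = 0.013).

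**Figure D3:**
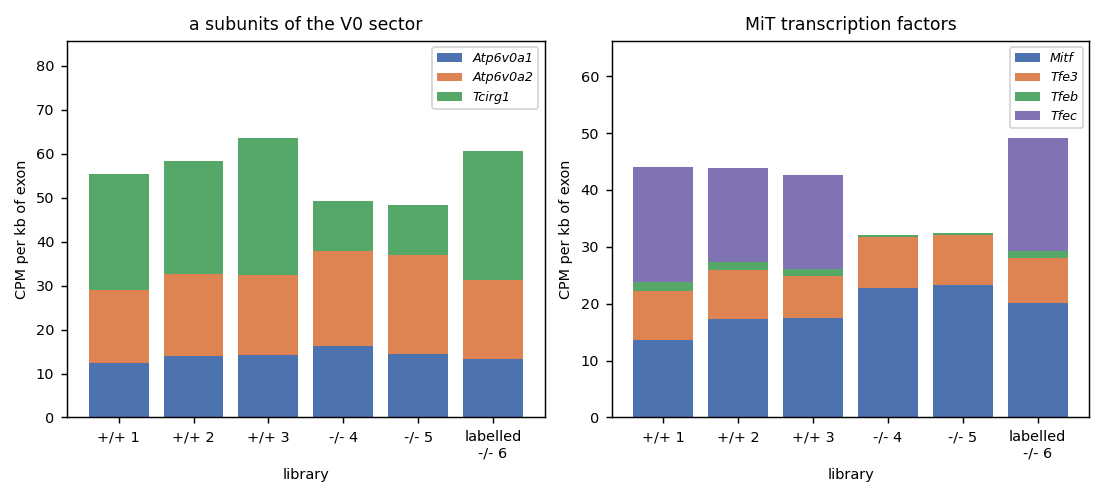
Level per kb of exon (CPM per kb, all exons of the gene) of the a subunit genes (left) and the MiT factor genes (right) in each library, stacked by gene. The Tcirg1 segment is 25.7 to 31.1 CPM per kb in Mcemp1+/+ and 11.3 in both replicates 4 and 5, and the Tfec segment is 16.6 to 20.3 CPM per kb in Mcemp1+/+ and 0.0120 and 0.0152 in replicates 4 and 5.

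Of the 7 glycosidases, 3 were called higher and 2 lower without replicate 6 (42.9% and 28.6%, beside 19.5% and 22.5% of all genes). Glb1 (chr9:114401076-114474898), the lysosomal beta-galactosidase, was at 113, 113 and 111 CPM in Mcemp1+/+, at 156 and 149 CPM in replicates 4 and 5 and at 105 CPM in replicate 6. The Mcemp1+/+ values were close together, replicates 4 and 5 were above them and replicate 6 below them. The log2 difference was 0.26 (SE 0.16, adjusted p = 0.30) over all libraries and 0.44 (SE 0.05, adjusted p = 0.0011) without replicate 6. Hexa, the alpha chain of beta-hexosaminidase, an enzyme released with mast cell granules, was at 120.2, 149.8 and 158 CPM in Mcemp1+/+, 195 and 194 CPM in replicates 4 and 5 and 161 CPM in replicate 6 (log2 difference 0.45, SE 0.12, adjusted p = 0.025 without replicate 6). Man2b1, the acid alpha-mannosidase, was at 429.7, 450.3 and 453 CPM in Mcemp1+/+, 592 and 567 CPM in replicates 4 and 5 and 414 CPM in replicate 6 (log2 difference 0.38, SE 0.05, adjusted p = 0.0021).

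The falls were in Gla and Neu1. Gla, the alpha-galactosidase that is deficient in Fabry disease, was at 30.3, 28.5 and 32.2 CPM in Mcemp1+/+, 19.3 and 20.1 CPM in replicates 4 and 5 and 27.0 CPM in replicate 6, so the groups did not overlap (log2 difference -0.61, SE 0.08, adjusted p = 0.0022 without replicate 6). Neu1, the lysosomal sialidase, was at 83.5, 73.5 and 104 CPM in Mcemp1+/+, 54.5 and 50.8 CPM in replicates 4 and 5 and 83.1 CPM in replicate 6 (log2 difference -0.71, SE 0.14, adjusted p = 0.011). Gaa, the acid alpha-glucosidase that digests glycogen, was at 98.4 to 112 CPM over the 6 libraries, and Gusb, the beta-glucuronidase, at 182 to 224 CPM, and neither passed. Among the 25 tested genes of a further list of lysosomal hydrolases, 10 were called higher and 6 lower without replicate 6 (24% lower and 40% higher, beside 22.5% and 19.5% of all genes) and 0 over all libraries. Galc, the galactosylceramidase, was at 44.9, 45.0 and 47.2 CPM in Mcemp1+/+, 82.0 and 69.2 CPM in replicates 4 and 5 and 61.1 CPM in replicate 6 (log2 difference 0.71, SE 0.09, adjusted p = 0.0014). Lgmn, the asparaginyl endopeptidase that matures cathepsins, was at 10.3, 21.4 and 41.5 CPM in Mcemp1+/+, 0.268 and 0.212 CPM in replicates 4 and 5 and 8.39 CPM in replicate 6 (log2 difference -4.90, SE 0.53, adjusted p = 9.4e-04). Scpep1, a serine carboxypeptidase, was at 19.4 to 20.8 CPM in Mcemp1+/+, 3.95 and 3.91 CPM in replicates 4 and 5 and 11.7 CPM in replicate 6 (log2 difference -2.23, SE 0.10, adjusted p = 5.2e-05).

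Among the 7 other hydrolases, 3 were called lower and 2 higher without replicate 6 (42.9% and 28.6%, beside 22.5% and 19.5% of all genes). Arsb (chr13:93771630-93943016), the sulfatase that acts on dermatan and chondroitin sulfate, was at 78.8, 67.2 and 126 CPM in Mcemp1+/+, at 2.41 and 2.82 CPM in replicates 4 and 5 and at 92.6 CPM in replicate 6. Replicate 6 lay inside the Mcemp1+/+ range and replicates 4 and 5 at 2.89% of its mean. For Arsb the log2 difference over all 6 libraries was -3.19 (SE 1.36, adjusted p = 0.20), and without replicate 6 it was -4.83 (SE 0.26, adjusted p = 9.8e-05). Its relative Arsa, which acts on sulfatide, was at 28.6 to 36.8 CPM and did not pass. Lipa, the acid lipase for cholesteryl esters, was at 83.5, 86.7 and 87.1 CPM in Mcemp1+/+, 71.6 and 59.6 CPM in replicates 4 and 5 and 84.2 CPM in replicate 6 (log2 difference -0.39, SE 0.09, adjusted p = 0.014 without replicate 6). Ppt1, which removes palmitoyl groups, was at 91.0 to 97.3 CPM in Mcemp1+/+ and 83.0 and 80.8 CPM in replicates 4 and 5 (log2 difference -0.19, SE 0.06, adjusted p = 0.040, and adjusted p = 0.053 with median-of-ratios scaling). Smpd1, the acid sphingomyelinase, was at 50.2 to 55.3 CPM in Mcemp1+/+ and 70.2 and 66.0 CPM in replicates 4 and 5 (log2 difference 0.39, SE 0.07, adjusted p = 0.0068), with replicate 6 at 46.2 CPM. Tpp1, a tripeptidyl peptidase, was at 176 to 184 CPM in Mcemp1+/+, 236 and 216 CPM in replicates 4 and 5 and 188 CPM in replicate 6 (log2 difference 0.31, SE 0.06, adjusted p = 0.0080). Asah1, the acid ceramidase, was at 85.9 to 117 CPM and did not pass.

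The cofactor prosaposin showed the largest change in CPM of any gene of the set that fell. Psap (chr10:60277627-60302597), whose protein is cut into the saposins that present sphingolipids to hydrolases, was at 1139, 1192 and 916 CPM in Mcemp1+/+, at 402 and 365 CPM in replicates 4 and 5 and at 909 CPM in replicate 6. The groups did not overlap, although replicate 6 lay just below the lowest Mcemp1+/+ library. The log2 difference was -1.07 (SE 0.36, adjusted p = 0.16) over all libraries and -1.49 (SE 0.12, adjusted p = 3.4e-04) without replicate 6. The CPM of Psap as a percentage of that of Ctsd was 124, 111 and 81.7% in Mcemp1+/+, 23.1 and 26.0% in replicates 4 and 5 and 90.7% in replicate 6. Gm2a, the activator of ganglioside GM2 breakdown, was at 265, 273 and 256 CPM in Mcemp1+/+, 333 and 339.6 CPM in replicates 4 and 5 and 259 CPM in replicate 6 (log2 difference 0.35, SE 0.05, adjusted p = 0.0031 without replicate 6). Grn, the granulin precursor, was at 209, 244 and 307 CPM in Mcemp1+/+ and 228 and 199.8 CPM in replicates 4 and 5 (adjusted p = 0.30).

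Of the 2 membrane proteins, 1 was called lower without replicate 6 (50%, beside 22.5% of all genes). Lamp1 (chr8:13159161-13175338) was at 541, 526 and 521 CPM in Mcemp1+/+, at 362 and 332 CPM in replicates 4 and 5 and at 535 CPM in replicate 6, a log2 difference of -0.40 (SE 0.18, adjusted p = 0.22) over all libraries and -0.61 (SE 0.06, adjusted p = 5.5e-04) without replicate 6. Lamp2, which also serves chaperone-mediated autophagy, was at 366, 366 and 393 CPM in Mcemp1+/+, 407 and 394 CPM in replicates 4 and 5 and 387 CPM in replicate 6 (log2 difference 0.10, SE 0.05, adjusted p = 0.21). The ratio of Lamp1 to Lamp2 in CPM was 148, 144 and 133% in Mcemp1+/+, 88.9 and 84.0% in replicates 4 and 5 and 138% in replicate 6. Of 25 tested genes on a list of other lysosomal membrane proteins, 6 were called lower and 5 higher without replicate 6 (24% lower and 20% higher, beside 22.5% and 19.5% of all genes). Cd63, a tetraspanin of lysosomes and mast cell granules, was at 420.2, 436 and 491 CPM in Mcemp1+/+, 941 and 875 CPM in replicates 4 and 5 and 486 CPM in replicate 6 (log2 difference 1.02, SE 0.08, adjusted p = 3.1e-04). Gpnmb, a glycoprotein of macrophages and melanocytes, was at 9.49, 40.7 and 33.8 CPM in Mcemp1+/+, 0.469 and 0.170 CPM in replicates 4 and 5 and 3.51 CPM in replicate 6 (log2 difference -4.95, SE 0.61, adjusted p = 0.0016). Tpcn1, an endolysosomal cation channel, was at 67.4 to 80.7 CPM in Mcemp1+/+, 20.4 and 18.2 CPM in replicates 4 and 5 and 62.0 CPM in replicate 6 (log2 difference -1.90, SE 0.10, adjusted p = 8.8e-05). Cd68, a membrane glycoprotein that is also on the macrophage marker list, was at 15.2 to 21.6 CPM in Mcemp1+/+, 2.28 and 2.17 CPM in replicates 4 and 5 and 13.6 CPM in replicate 6 (log2 difference -2.79, SE 0.17, adjusted p = 1.3e-04).

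Of the transcription factors, Tfeb (chr17:47737030-47792419) was at 8.88, 7.20 and 7.06 CPM in Mcemp1+/+, at 1.41 and 2.21 CPM in replicates 4 and 5 and at 6.53 CPM in replicate 6. The groups did not overlap, with replicate 6 just below the lowest Mcemp1+/+ library. The log2 difference was -1.31 (SE 0.48, adjusted p = 0.18) over all libraries and -1.86 (SE 0.21, adjusted p = 0.0011) without replicate 6. Tfe3, its relative, was at 79.1, 80.9 and 68.3 CPM in Mcemp1+/+, 83.2 and 82.3 CPM in replicates 4 and 5 and 73.1 CPM in replicate 6 (adjusted p = 0.29). The other members of the family went apart: Mitf was at 84.5, 107 and 108 CPM in Mcemp1+/+, 141 and 144 CPM in replicates 4 and 5 and 125 CPM in replicate 6 (log2 difference 0.52, SE 0.12, adjusted p = 0.014), higher in all 3 libraries labelled Mcemp1-/-. Tfec, known from macrophages, was at 114, 93.2 and 92.7 CPM in Mcemp1+/+ and 111 CPM in replicate 6, and at 0.0669 and 0.0849 CPM in replicates 4 and 5, at or near the lowest value that those libraries list (adjusted p = 3.8e-06 without replicate 6). Per kb of exon, Tfec held 46.1, 37.9 and 38.8% of the level of the 4 genes in Mcemp1+/+, 0.0373 and 0.0467% in replicates 4 and 5 and 40.4% in replicate 6. Among 22 tested genes of the list of MiT factors and their regulators, 11 were called higher and 1 lower without replicate 6 (4.55% lower and 50% higher, beside 22.5% and 19.5% of all genes). These included Ywhab, a 14-3-3 protein of the family that holds TFEB in the cytosol, at 482 to 513 CPM in Mcemp1+/+, 804 and 751 CPM in replicates 4 and 5 and 538 CPM in replicate 6 (log2 difference 0.65, SE 0.06, adjusted p = 4.2e-04). Lamtor3, a part of the Ragulator complex on the lysosome, was at 87.3 to 93.2 CPM in Mcemp1+/+, 127 and 139 CPM in replicates 4 and 5 and 109 CPM in replicate 6 (log2 difference 0.55, SE 0.06, adjusted p = 0.0013).

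**Figure D4:**
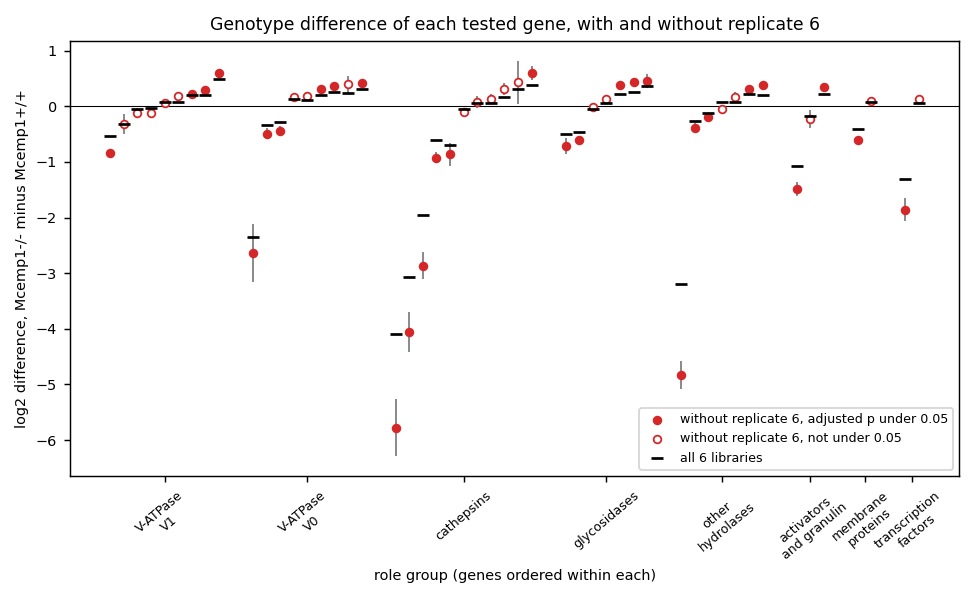
Log2 difference, Mcemp1-/- minus Mcemp1+/+, of each of the 50 tested genes by role group, without replicate 6 (circles, with the standard error as bars; filled where the adjusted p was under 0.05) and over all 6 libraries (black dashes, 0 genes with an adjusted p under 0.05). The deepest circles are Ctss at -5.77 and Arsb at -4.83, and the highest is Atp6v1h at 0.60.

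Side by side, the role groups had different medians. Without replicate 6, the median log2 difference was 0.06 in V1, 0.18 in V0, 0.13 in the glycosidases, -0.10 in the cathepsins and -0.89 in the cysteine cathepsins alone. In the other hydrolases it was -0.05, and the groups of 3 or fewer genes had -0.23 (cofactors and granulins), -0.26 (membrane proteins) and -0.87 (transcription factors). The cysteine cathepsins had medians against the Mcemp1+/+ mean of -0.84 and -0.95 in replicates 4 and 5 and -0.14 in replicate 6, and of -0.12, -0.05 and 0.26 in the Mcemp1+/+ libraries. The corresponding medians for the whole V-ATPase were 0.22, 0.10 and 0.05 in replicates 4, 5 and 6. The summed level of the 18 V-ATPase genes (the pseudogene row included) was 1652 to 1744 CPM in Mcemp1+/+ and 1714 to 1786 CPM in Mcemp1-/-, ranges that overlapped. The 51 genes together took 8347 to 8824 CPM in Mcemp1+/+ and 7809 to 8467 CPM in Mcemp1-/-. No difference between role groups was tested.

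Levels of different genes can be compared per length of transcript. In Mcemp1+/+, Ctsd led at 441 ± 44.9 CPM per kb of exon (SD, n = 3), followed by Psap at 394 ± 53.5 and Lamp1 at 198 ± 3.87. Ctsd and Psap did not differ beyond their spread, and both lay above Lamp1 by more than theirs. Next came Ctsz at 114 ± 13.2, Atp6v0d1 at 79.8 ± 2.33 and Ctse at 78.5 ± 9.58 CPM per kb, and the last pair did not differ beyond their spread. In replicates 4 and 5 the mean levels of Ctsd and Psap were 668 and 139.8 CPM per kb. The lowest in Mcemp1+/+ were Ctsf and Ctsk at 0.189 ± 0.116 and 0.290 ± 0.140, below Atp6v1g2 and Tfeb at 1.30 ± 0.156 and 1.36 ± 0.178. With principal transcript lengths the first 3 places were the same, and Atp6v0c was in place 4 (15 by all exons), Ctse in place 6, Ctsz in place 8 (4 by all exons) and Atp6v0d1 in place 13 (5 by all exons). The level of Atp6v0c was then 176 ± 13.4 CPM per kb.

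Markers of other cell types moved with these results. Of 9 neutrophil precursor markers, 8 were called lower without replicate 6 (88.9%, beside 22.5% of all genes), and 0 over all libraries. Their summed level was 11322, 8679 and 14376 CPM in Mcemp1+/+, 477 and 352 CPM in replicates 4 and 5 and 13076 CPM in replicate 6. Ctsg, the 1 marker not called (adjusted p = 0.20), made up most of the sum in replicates 4 and 5, at 436 and 346 CPM. It was at 557, 437 and 424 CPM in Mcemp1+/+ and 654 CPM in replicate 6. Mpo, Elane and Prtn3, enzymes of neutrophil primary granules, were at 5105 to 6685, 525 to 814 and 549 to 818 CPM in Mcemp1+/+ and at 1.004 and 1.06, 0.201 and 0.127 and 0.134 and 0.212 CPM in replicates 4 and 5. All 6 tested macrophage markers were called lower without replicate 6 (beside 22.5% of all genes), and 0 over all libraries. The 8 in the table summed to 122, 163 and 174 CPM, 4.55 and 3.26 CPM and 122 CPM in the same order. Csf1r, the receptor that defines the lineage, was at 73.2 to 90.4 CPM in Mcemp1+/+ and 0.469 and 0.375 CPM in replicates 4 and 5. Of 9 mast cell markers, 8 were called higher and 1 (Hdc) lower without replicate 6, and 0 over all libraries. The shares without replicate 6 were 88.9% higher and 11.1% lower, beside 19.5% and 22.5% of all genes. The sum of the mast cell markers was 22981, 23199.6 and 23825 CPM, 43505 and 44723 CPM and 24026 CPM. Kit, the SCF receptor, was 0.90 higher on the log2 scale (SE 0.06, adjusted p = 1.4e-04), more than any of the 13 lysosomal genes called higher.

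Ctss, Ctsl, Ctsh, Arsb, Psap, Lgmn, Gpnmb and Tfec were thus lowest in replicates 4 and 5. The same held for the sums of the neutrophil precursor and macrophage markers, though not for every marker on the lists, such as Ctsg. Of these, Ctsl, Psap, Lgmn and Gpnmb also lay below every Mcemp1+/+ library in replicate 6. The eosinophil markers differed in pattern, at 46.4, 85.9 and 135 CPM in Mcemp1+/+, 6.17 and 6.09 CPM in replicates 4 and 5 and 8.85 CPM in replicate 6, low in all 3 libraries labelled Mcemp1-/- as was Atp6v0d2. Prg2 and Epx, granule proteins, made up most of that sum in Mcemp1+/+, and Il5ra, an interleukin-5 receptor chain on the same list, was at 1.60, 4.44 and 4.35 CPM in Mcemp1+/+, 5.56 and 5.32 CPM in replicates 4 and 5 and 4.22 CPM in replicate 6 (adjusted p = 0.21). Over all 6 libraries 2 of the 6 tested eosinophil markers were called lower, beside 0.0596% of all genes. Of the 2 tested dendritic cell markers, 1 was called lower and 1 higher without replicate 6 (50% each, beside 22.5% and 19.5% of all genes). That list summed to 26.6 to 34.2 CPM in Mcemp1+/+ and 24.8 to 27.6 CPM in Mcemp1-/-. The stromal list summed to 1.16 to 58.1 CPM in Mcemp1+/+, highest in replicate 2, and to 1.22 to 1.91 CPM in Mcemp1-/-. The part of the cell mixture in the lysosomal results was not tested.

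**Figure D5:**
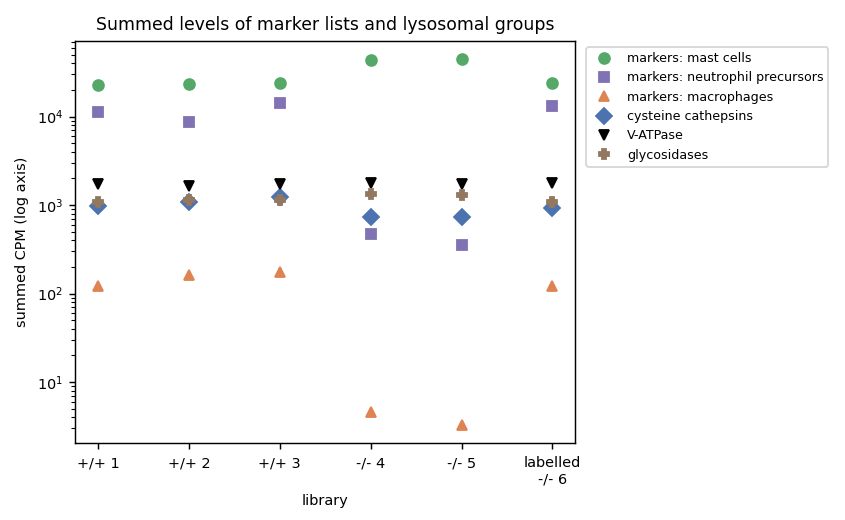
Summed CPM (log axis) of the mast cell, neutrophil precursor and macrophage marker lists and of the cysteine cathepsins, V-ATPase and glycosidases, in each library. In replicates 4 and 5 the mast cell sum is at 43505 and 44723 CPM and the cysteine cathepsin sum is at 741 and 742 CPM. The neutrophil precursor sum is there at 477 and 352 CPM, of which Ctsg alone is 436 and 346 CPM. In replicate 6 the neutrophil precursor and macrophage sums are within the Mcemp1+/+ range. Its mast cell and V-ATPase sums (24026 and 1776 CPM) are just above that range, and its cysteine cathepsin and glycosidase sums (916 and 1078 CPM) are below it.

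Of 20 genes that sort hydrolases to the lysosome, 4 were called lower and 5 higher without replicate 6 (20% lower and 25% higher, beside 22.5% and 19.5% of all genes). Sort1, the receptor sortilin that carries prosaposin and other cargo from the Golgi, was at 216, 194 and 258 CPM in Mcemp1+/+, 22.7 and 21.1 CPM in replicates 4 and 5 and 282 CPM in replicate 6 (log2 difference -3.31, SE 0.12, adjusted p = 3.6e-05). Lyst, the regulator of lysosome and granule size mutated in beige mice, was at 88.9, 115 and 154 CPM in Mcemp1+/+, 40.6 and 34.1 CPM in replicates 4 and 5 and 176 CPM in replicate 6 (log2 difference -1.64, SE 0.22, adjusted p = 0.0023). Of the genes that make and uncover the mannose 6-phosphate tag, Gnptg, a transferase subunit, was at 12.99, 15.5 and 14.6 CPM in Mcemp1+/+, 24.6 and 23.7 CPM in replicates 4 and 5 and 16.1 CPM in replicate 6 (log2 difference 0.74, SE 0.10, adjusted p = 0.0023), and Nagpa, the uncovering enzyme, was at 37.7, 36.2 and 31.4 CPM in Mcemp1+/+, 22.7 and 22.5 CPM in replicates 4 and 5 and 32.9 CPM in replicate 6 (log2 difference -0.62, SE 0.10, adjusted p = 0.0036). Of 9 tested cathepsin inhibitors, 4 were called lower and 2 higher (44.4% lower and 22.2% higher, beside 22.5% and 19.5% of all genes). Cstb, the cytosolic cystatin B, was at 72.3, 71.3 and 96.2 CPM in Mcemp1+/+, 50.01 and 48.2 CPM in replicates 4 and 5 and 97.9 CPM in replicate 6 (log2 difference -0.68, SE 0.14, adjusted p = 0.010). Stfa2l1, one of a cluster of near-identical stefin A genes whose counts are uncertain, was at 10.5, 14.0 and 38.2 CPM in Mcemp1+/+, 1.85 and 0.510 CPM in replicates 4 and 5 and 23.7 CPM in replicate 6 (log2 difference -3.59, SE 0.61, adjusted p = 0.0051). Serpinb6a, a serpin, was at 39.2, 41.4 and 39.4 CPM in Mcemp1+/+, 91.5 and 88.8 CPM in replicates 4 and 5 and 54.6 CPM in replicate 6 (log2 difference 1.16, SE 0.06, adjusted p = 8.5e-05), higher in all 3 libraries labelled Mcemp1-/-. Serpinb1a, an inhibitor of neutrophil serine proteases, was at 972, 1018 and 1212 CPM in Mcemp1+/+, 1471 and 1329 CPM in replicates 4 and 5 and 1108 CPM in replicate 6 (log2 difference 0.40, SE 0.11, adjusted p = 0.027).

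TFEB, TFE3 and MITF are known to bind the E-box CACGTG, above all with a T before it, and MITF also binds TCATGTG, so the promoters of the members were searched for these letters on both strands. Windows from 250 bases before to 50 after the start came from RefSeq (build GRCm38.p6) and covered 40 of the 51 members. CACGTG was in 13 of the 40 (32.5%), against 11.8% of the 9716 tested genes with a window and 8.09% of all 27025 genes with one. TCACGTG, which holds CACGTG, was in 11 members (27.5%), against 6.95% and 4.29%, and TCATGTG was in 7 (17.5%), against 2.86% and 4.31%. A match is a description of letters and not of binding.

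The 11 members with TCACGTG came from every role group with a promoter window except the cofactors and the transcription factors: Atp6v1a, Atp6v0b, Atp6v0d1, Atp6v0e, Ctsa, Ctsd, Gaa, Gla, Glb1, Arsa and Lamp1. The sites of 6 of them are shown with 20 bases on either side because these genes went in different directions, with TCACGTG or its reverse complement in capitals.
Atp6v0d1 (chr8:105566041-105566088, - strand): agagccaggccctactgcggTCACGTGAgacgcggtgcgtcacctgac
Atp6v0e (chr17:26676378-26676425, + strand): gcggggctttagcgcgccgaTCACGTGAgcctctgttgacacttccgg
Ctsd (chr7:142387899-142387946, - strand): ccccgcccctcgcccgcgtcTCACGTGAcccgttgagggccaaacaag
Glb1 (chr9:114401009-114401055, + strand): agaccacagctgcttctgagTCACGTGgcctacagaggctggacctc
Gla (chrX:134601173-134601220, - strand): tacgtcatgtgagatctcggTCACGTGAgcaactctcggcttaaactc
Atp6v1a (chr16:44139364-44139411, - strand): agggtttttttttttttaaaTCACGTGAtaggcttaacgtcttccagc
In Atp6v0d1, Atp6v0e, Ctsd, Gla and Atp6v1a the capitals run to 8 bases because TCACGTGA reads as the motif on both strands, and in Glb1 they do not. Gla and Ctsd each hold 1 further site that is not shown. Without replicate 6, Atp6v0d1, Atp6v0e, Ctsd and Glb1 were called higher, Gla lower and Atp6v1a neither. Of all 11 members with the motif, 4 were called higher and 2 lower, with a median log2 difference of 0.17. Of the 28 tested members with a window that lacks it, 6 were called higher and 10 lower, with a median of 0.11. Over all genes in the same fit, 19.5% were called higher and 22.5% lower. The difference between members with and without the motif was not tested.

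Lamp1 and Ctss show the range of promoters among the genes that fell. The Lamp1 window held TCACGTG or its reverse complement at 4 places (capitals), and the Ctss window held TCATGTG once (capitals) and no CACGTG.
Lamp1 promoter (chr8:13158911-13159210, + strand): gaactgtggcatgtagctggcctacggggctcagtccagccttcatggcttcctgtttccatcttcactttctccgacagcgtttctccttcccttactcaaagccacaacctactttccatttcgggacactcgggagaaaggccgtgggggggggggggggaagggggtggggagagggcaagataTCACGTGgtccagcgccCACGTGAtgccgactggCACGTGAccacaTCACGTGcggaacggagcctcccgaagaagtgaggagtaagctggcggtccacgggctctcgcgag
Ctss promoter (chr3:95526536-95526835, + strand): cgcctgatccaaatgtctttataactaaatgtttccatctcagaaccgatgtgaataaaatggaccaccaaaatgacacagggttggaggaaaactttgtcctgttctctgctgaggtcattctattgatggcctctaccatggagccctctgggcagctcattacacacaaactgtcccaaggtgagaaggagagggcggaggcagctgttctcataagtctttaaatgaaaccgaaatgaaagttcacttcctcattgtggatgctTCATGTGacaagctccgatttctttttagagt
In the comparison without replicate 6, both genes were called lower, Lamp1 at -0.61 and Ctss at -5.77 on the log2 scale. Of the 7 members with TCATGTG, 4 were called lower (Atp6v0c, Ctss, Gla and Ppt1) and 1 higher (Tpp1), and Ctsa and Grn did not pass. Over all genes, 22.5% were called lower and 19.5% higher. The windows of Psap, Arsb and Tfeb held none of the 3 motifs, which says only that these letters are not in them.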

How the data were processed

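RNA sequencing was analysed for 6 libraries, 3 per group, prepared with a KAPA mRNA HyperPrep kit. The authors deposited 1 table of normalized counts (CPM scale), made with Partek Flow and mm10, with sums of 932999 to 989051 per library. Aligner, normalization method and filters were not given in the sources used here. No value was 0, 40.0% to 50.9% of low values lay on multiples of the lowest (tolerance 0.01, up to 20 times), and whole reads were not recovered, so no count test was run. If the lowest value is 1 read, depth was 14800000 to 23600000 reads.

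The test was limma 3.58.1 in R 4.3.3 (lmFit, then eBayes with a trend) on log2(value + 0.479) for genes whose mean reached 1 CPM, with Benjamini-Hochberg adjustment over all genes tested. Fold changes are on that scale, which understates those of low genes. An exact permutation test of 3 against 3 cannot go below p = 0.1 and was not used. The method was tested on simulated data. Alternatives changed the added constant (0.1 or 2 CPM), the minimum (none or 5 CPM), the scaling, the trend, the threshold and the libraries. Members, roles and lists were chosen with earlier results of these data known. Genes named were, per role, up to 4 with the largest difference in either fit and up to 2 with the highest mean, and 4 per list of partners; the other members are given by their range. A gene that this rule names is not reported here. Exon lengths came from GENCODE vM21, whose gene starts equalled 97.4% of those deposited. Promoters came from RefSeq (GRCm38.p6). Tables and plots used Python 3.11.15, pandas 2.3.3, numpy 2.4.6 and matplotlib 3.10.9. Mice or cultures behind each library are not given, and 2 sample numbers in the column headers occur on 2 libraries each, so sequencing batches were not used.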

Additional observations from a re-analysis of the deposited data

How the results depend on the processing

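Which library was left out decided the calls. Leaving out each library in turn gave 0 to 17 members called lower and 0 to 13 called higher. The upper ends came without the library labelled Mcemp1-/- replicate 6, where 22.5% of all genes were called lower and 19.5% higher. With each library left out in turn, members whose groups did not overlap numbered 7 to 19 (lower) and 7 to 23 (higher). Without replicate 6, 33.6% and 32.1% of all genes were apart. At an unadjusted p under 0.05, 8 were lower and 5 higher. With equal library totals 4 members were higher without overlap, a scaling that moved the median log2 difference to 0.0203 over all members, 0.029 in V1, 0.0217 in the glycosidases and -0.21 in the membrane proteins. The cathepsin median was -0.33 with a minimum mean of 5 CPM and -0.31 with no minimum, where the cathepsins tested differ, and the transcription factor median was -0.46 with 2 CPM added before the logarithm. Leaving out a library moved the medians over 0.00497 to 0.0646 (all members), 0.0232 to 0.0936 (V1), 0.053 to 0.18 (V0), -0.30 to 0.00294 (cathepsins), 0.00507 to 0.13 (glycosidases), -0.051 to 0.0843 (other hydrolases), -0.31 to -0.029 (cofactors and granulins), -0.26 to -0.0921 (membrane proteins) and -0.87 to -0.44 (transcription factors). The causes of the other moves were not tested. Of 59 genes named by the rule, 52 passed without replicate 6 and in none of the settings that kept it. The rule picks large differences, in part among genes that passed without replicate 6, so this count is largely set by the choice. Over all genes in that fit, 22.5% were called lower and 19.5% higher. With replicate 6 left out, median-of-ratios scaling called 16 members lower and 13 higher, and equal totals 18 and 11, with 29 and 28 of the 30 calls shared and 0 called members of opposite sign (both chosen after seeing the data). Of all 13412 genes, median-of-ratios scaling called 2938 lower and 2724 higher, and equal totals 3444 and 2133. In the 200 bases nearest the start, the E-box was in 11 of the 40 promoters, the E-box with a T before it in 10, and the further MITF motif in 5. Depth limits genes at low values, such as Ctsk and Ctsf in every library and Atp6v0d2, Lgmn, Gpnmb and Tfec in replicates 4 and 5. No paired analysis was possible because the groups share no replicate numbers.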
